A study of Arabidopsis thaliana with 24 samples.

Results

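The response of Arabidopsis thaliana Col-0 seedlings to growth at 10 °C was examined against growth at 23 °C. Col-0 is the reference accession, and the labels name no transgene or mutation. Seeds were placed on MS medium, stratified and moved to growth rooms, and whole seedlings were taken 23 days after the move at 10 °C and 8 days after it at 23 °C. Each group held 3 libraries, so the comparison used 6 of the 24 libraries of the series, chosen by their labels. IP-Svi-0, a natural accession studied for its early flowering, was grown at the same temperatures to the same ages. Its libraries entered the test of whether its response differed. As part of all 24 libraries they also entered the scaling, the choice of tested genes and the estimate of spread. Age changed together with temperature, and the effects of cold and of age cannot be told apart here. Nothing in the labels tells if the replicates came from separate cultures, so p-values measure only the spread between libraries of a group, which may be technical. In whole seedlings, fewer cells of a type and less RNA per cell cannot be told apart either.

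Plants from temperate climates become more tolerant of freezing after a time in the cold. In Arabidopsis the CBF transcription factors bind the C-repeat element of target promoters and switch on the COR genes, whose products protect membranes and proteins. Long cold also silences the flowering repressor FLC through VIN3, slows growth, and changes the balance between light capture by the antenna proteins and carbon fixation by the Calvin cycle.

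The 10 °C libraries held 355824 to 630185 counts at genes and the 23 °C libraries 558395 to 748770, which was 1.48 to 2.61% and 2.32 to 3.10% of all reads. Levels are given as counts brought to a common library total (CPM), after scaling between libraries, and in the order of replicates 1, 2 and 3. The libraries were strand-specific, while no source used here gives the strand setting of the counting, so counts at a gene can come from an overlapping gene on the other strand. Such neighbours are named with the gene. The 10 °C replicate 2 stood apart, with 26.5% of its reads aligned to several places and 6.77% of its counts at organelle genes, against 3.83 to 7.71% and 0.348 to 1.08% in the other 5 libraries. Nuclear genes without such a neighbour held 39.1 ± 4.35% of counts at nuclear genes at 10 °C and 45.4 ± 3.23% at 23 °C (SD, n = 3 each). Genes with such a neighbour held the rest, although they were only 20.5% of the 32835 nuclear genes matched to the annotation.

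Of 10097 genes tested, 675 (6.69%) changed, 387 (3.83%) higher and 288 (2.85%) lower at 10 °C, by edgeR's quasi-likelihood test at a Benjamini-Hochberg adjusted p under 0.05. Genes past that threshold are called higher or lower below, and every adjusted p is from this test. Of the called genes 347 rose and 266 fell by over 2-fold, and 91 and 98 by over 4-fold. The median log2 change of all tested genes was -0.01. All 3 libraries at 10 °C lay above all 3 at 23 °C at 1206 tested genes (11.9%), called or not, and below at 1275 (12.6%). Without the 10 °C replicate 2, 197 genes were higher and 195 lower, and 382 of these 392 were among the genes called with it. The counts were 188 and 162 without the 10 °C replicate 3, 188 and 202 without the 23 °C replicate 1, and 217 and 220 without the 23 °C replicate 2. With the share of counts at nuclear genes without a neighbour as a covariate, 249 were higher and 433 lower. Of 44 tested organelle genes 17 were higher with the 10 °C replicate 2 and 0 without it. Genes with an exon neighbour on the other strand were called higher in 5.78% and lower in 1.92% of 3705, and nuclear genes without one in 2.46% and 3.42% of 6345.

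Cold-induced protective proteins included some of the largest rises at 10 °C. Of 15 listed genes 13 were tested, 8 were higher at 10 °C and 0 lower, where 3.83% of all tested genes were higher, and the median log2 change was 1.33. With 1 Col-0 library left out 6 or 7 were higher, 6 without the 10 °C replicate 3 or the 23 °C replicate 2. COR15A (AT2G42540, chromosome 2, 17710441 to 17712330, TAIR10.1), a chloroplast protein that stabilises membranes during freezing, had 644, 1131 and 907 CPM at 10 °C and 36.4, 22.8 and 21.9 CPM at 23 °C. The lowest library at 10 °C thus lay far above the highest at 23 °C (log2 change 5.005, SE 0.38, adjusted p = 7.68e-12). Its neighbour COR15B (AT2G42530), a close relative, had 262, 420.0 and 298 CPM against 18.8, 13.4 and 1.99 CPM (log2 change 4.67, SE 0.40, adjusted p = 7.71e-11). COR15B shares 468 bp of exon with AT2G42520 on the other strand, which did not pass the test (log2 change -0.53, SE 0.38, adjusted p = 0.474). KIN1 (AT5G15960, chromosome 5, 5209717 to 5210826), a small hydrophilic protein, had 449, 513 and 530.2 CPM against 36.4, 26.9 and 25.9 CPM (log2 change 4.04, SE 0.38, adjusted p = 1.33e-09). KIN2 (AT5G15970), its tandem copy, had 461, 533 and 660.5 CPM against 103, 67.2 and 65.8 CPM (log2 change 2.79, SE 0.27, adjusted p = 2.27e-09). The groups did not overlap at any of these 4 genes. All libraries at 10 °C lay above all at 23 °C at 11.9% of all tested genes. Similar sequence within the COR15 and KIN pairs could have moved reads between copies.

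**Figure D1:**
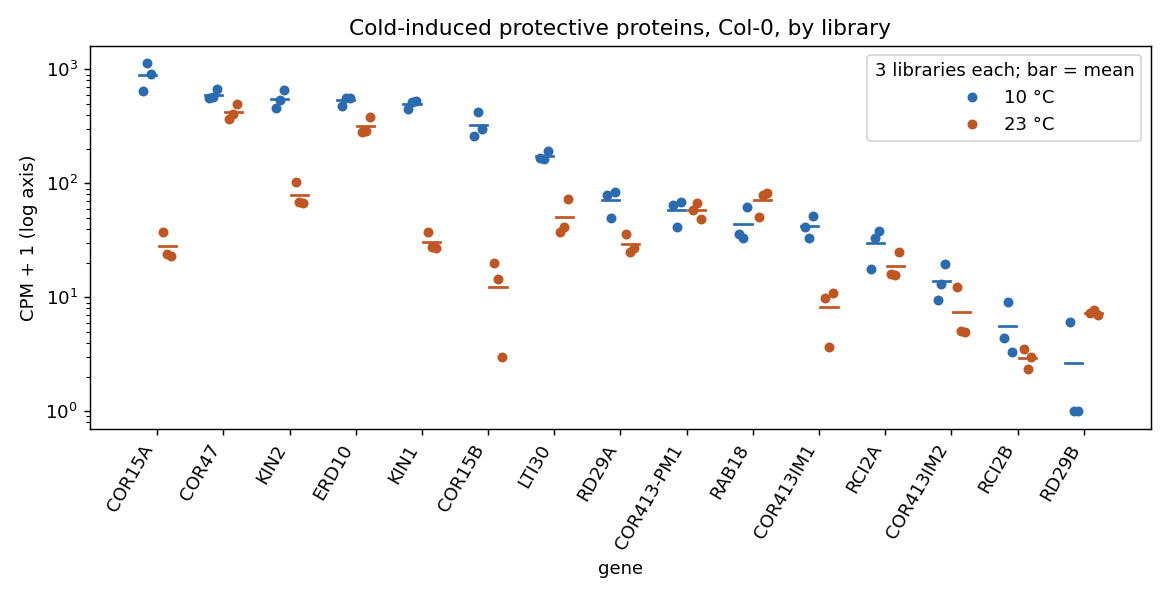
CPM + 1 on a log axis at the 15 genes listed as cold-induced protective proteins in each Col-0 library at 10 and 23 °C, with bars at the mean of 3 libraries. At COR15A the libraries at 10 °C sit between 644 and 1131 CPM and those at 23 °C between 21.9 and 36.4 CPM, while at COR413-PM1 the groups overlap.

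The other called members rose less. COR413IM1, a protein of the inner chloroplast envelope, had 40.2, 32.3 and 51.2 CPM at 10 °C and 8.78, 2.69 and 9.97 CPM at 23 °C (log2 change 2.57, SE 0.41, adjusted p = 4.79e-05). LTI30, a dehydrin, had 168, 162 and 193 CPM against 36.4, 40.3 and 71.8 CPM (log2 change 1.85, SE 0.31, adjusted p = 9.75e-05). RD29A (AT5G52310), a hydrophilic stress protein, had 78.8, 48.5 and 83.7 CPM against 35.1, 24.2 and 25.9 CPM (log2 change 1.33, SE 0.36, adjusted p = 0.0158). Its groups did not overlap, as at 11.9% of all tested genes in that direction. Its call was lost without 10 °C replicate 1 or 3 or 23 °C replicate 2 or 3 (adjusted p = 0.0501 to 0.0945). ERD10, a dehydrin, had 478, 561 and 565 CPM against 282, 289 and 381 CPM (log2 change 0.75, SE 0.24, adjusted p = 0.0444), and its call was lost without 10 °C replicate 2 or 3 or 23 °C replicate 1 or 2 (adjusted p = 0.129 to 0.185). The dehydrin COR47 had 599 ± 59.5 against 424 ± 65.5 CPM (SD, n = 3 each) and did not pass the test (log2 change 0.50, SE 0.24, adjusted p = 0.232). COR413-PM1 (0.04), RCI2A (0.65), RAB18 (-0.68) and RD29B (-1.38) did not pass either on the log2 scale, with 3 against 13 counts at RD29B, and COR413IM2 and RCI2B had too few counts to be tested. RCI2A, a small membrane protein, lies opposite APC11 over 40 bp, RAB18, a dehydrin, opposite PLP3b over 11 bp, and COR413IM2 opposite AT1G29380 over 98 bp.

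Promoter stretches of 5 of the called genes are shown because the C-repeat core CCGAC, the site bound by CBF factors, and the abscisic acid response core ACGTG are the elements known for this gene group. Each line gives the 250 bases before the gene start on the gene's strand, from RefSeq TAIR10.1, with capitals at a match to CCGAC or ACGTG on either strand. The windows are chr2:17712331-17712580 on the minus strand for COR15A, chr5:21240467-21240716 for RD29A, chr5:5209467-5209716 for KIN1 and chr5:5211469-5211718 for KIN2, all on the plus strand, and chr1:10289667-10289916 on the minus strand for COR413IM1.
COR15A: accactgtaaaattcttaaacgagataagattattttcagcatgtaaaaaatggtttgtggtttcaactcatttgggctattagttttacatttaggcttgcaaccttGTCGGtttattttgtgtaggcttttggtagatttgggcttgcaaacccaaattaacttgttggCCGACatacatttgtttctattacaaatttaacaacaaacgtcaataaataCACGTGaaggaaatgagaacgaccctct
RD29A: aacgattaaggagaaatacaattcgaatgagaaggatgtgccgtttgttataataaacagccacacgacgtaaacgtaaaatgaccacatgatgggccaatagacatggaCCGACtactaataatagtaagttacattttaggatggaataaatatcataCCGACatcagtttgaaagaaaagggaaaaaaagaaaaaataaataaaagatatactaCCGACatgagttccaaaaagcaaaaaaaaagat
KIN1: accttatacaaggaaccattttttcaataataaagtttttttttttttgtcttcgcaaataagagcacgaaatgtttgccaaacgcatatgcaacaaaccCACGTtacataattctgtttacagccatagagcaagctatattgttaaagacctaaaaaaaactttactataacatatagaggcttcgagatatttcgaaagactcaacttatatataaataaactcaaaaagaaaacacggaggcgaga
KIN2: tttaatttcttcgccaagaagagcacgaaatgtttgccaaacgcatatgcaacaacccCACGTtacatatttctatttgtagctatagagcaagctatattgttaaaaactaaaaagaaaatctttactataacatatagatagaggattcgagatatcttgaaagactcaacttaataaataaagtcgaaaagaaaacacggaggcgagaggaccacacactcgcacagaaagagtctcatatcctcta
COR413IM1: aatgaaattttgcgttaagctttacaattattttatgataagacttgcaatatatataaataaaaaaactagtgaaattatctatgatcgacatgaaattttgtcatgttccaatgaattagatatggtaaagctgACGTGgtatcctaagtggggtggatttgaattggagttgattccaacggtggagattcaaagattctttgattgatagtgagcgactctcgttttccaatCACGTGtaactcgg

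COR15A held 2 matches to CCGAC, the nearer one beginning 79 bases before the start, and a palindrome that matches ACGTG on both strands from base 28. RD29A held 3 matches to CCGAC, beginning 140, 90 and 33 bases before the start. KIN1 and KIN2 each held 1 match to ACGTG and 0 to CCGAC. COR413IM1 held 3 matches to ACGTG, of which 2 overlap in a palindrome, and 0 to CCGAC. The window of COR15B, which falls largely inside the COR15A gene, and that of ERD10 are not shown. These 2 windows held 0 matches to either core, although both genes were called. RD29B and RAB18, which were not called, held 4 and 3 matches to ACGTG, and RD29B 1 to CCGAC. Of the 8 called genes 3 windows held CCGAC and 4 held ACGTG, and of all 15 listed genes 6 and 7, against 12.2% and 21.6% of the windows of all 32834 genes. CCGAC was in 15.4% of the windows of genes called higher and 13.2% of those called lower, and ACGTG in 25.4% and 31.3%. The evening element AAAATATCT, bound by clock factors, was in 3.51% of windows of genes called higher and 2.43% of those called lower. It was in 2.60% of those of tested genes and 2.22% of all. These shares are descriptions of letters on both strands and were not tested.

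Counts at the regulators upstream were few. At 10 °C only 1.48 to 2.61% of reads were counted at genes, and the strand setting of the counting is not given. Few counts thus do not show that the transcripts were scarce. CBF1 had 0 counts at 10 °C and 4 at 23 °C, CBF2 1 and 0, and CBF3 (opposite AT4G07385 over 29 bp) 4 and 3, where 3 counts over a group were 2.35 CPM at 10 °C and 1.47 CPM at 23 °C. Of 9 listed cold regulators 5 were tested, 0 were higher and 1 lower, where 3.83% of all tested genes were higher and 2.85% lower. The lower one was ZAT10 (AT1G27730), a zinc finger repressor of stress responses, which had 11.7, 0 and 6.98 CPM at 10 °C and 50.2, 34.9 and 67.8 CPM at 23 °C (log2 change -2.67, SE 0.44, adjusted p = 8.48e-05). All libraries at 10 °C lay below all at 23 °C, as at 12.6% of all tested genes.

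In other groups known from cold acclimation 0 or 1 gene each was called, where 3.83% of all tested genes were higher and 2.85% lower. At such shares, groups of this size hold few called genes in any case. Of 12 tested genes of sugar, proline and starch metabolism 0 were called. BAM3 (AT4G17090), a chloroplast beta-amylase opposite AT4G06665 over 518 bp, had 532, 501 and 612 CPM at 10 °C and 577, 538 and 658 CPM at 23 °C (log2 change -0.11, SE 0.24, adjusted p = 0.866). GOLS3, a galactinol synthase, had 0 counts in both groups. Of 9 tested desaturases 1 was lower, FAD2 (AT3G12120), the oleate desaturase of the endoplasmic reticulum, with 98.9, 84.8 and 105 CPM against 243, 188 and 209 CPM (log2 change -1.14, SE 0.26, adjusted p = 0.00449). Of 6 cold-shock and glycine-rich RNA-binding proteins 0 were called, and GRP7, an RNA-binding protein of cold and clock response, had 1170.3, 541 and 693 CPM against 909, 521 and 448 CPM (log2 change 0.36, SE 0.29, adjusted p = 0.523). Of 16 tested flavonoid genes 0 were called, with CHS, chalcone synthase (opposite AT5G13940 over 2 bp), at -0.31 (adjusted p = 0.545) and DFR, dihydroflavonol reductase, at 0.56 (adjusted p = 0.431) on the log2 scale.

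Many genes for the light-harvesting antenna were higher at 10 °C, but not all. Of 27 tested light harvesting and photosystem genes 15 were higher and 0 lower, with a median log2 change of 1.11, where 3.83% of all tested genes were higher and 2.85% lower. LHCB4.3, an antenna gene that is not on the list and was noticed after its values were seen, was lower (log2 change -1.70, SE 0.28, adjusted p = 7.44e-05). With 1 Col-0 library left out 12 to 15 were higher, and with the share of counts without a neighbour as covariate 19. LHCB1.3 (AT1G29930, chromosome 1, 10477885 to 10479114), of the major antenna of photosystem II, had 9020.4, 5383 and 8698 CPM at 10 °C and 1723, 1829 and 1309.6 CPM at 23 °C (log2 change 2.25, SE 0.33, adjusted p = 9.46e-06). It lies opposite NRPA2 over 108 bp, and NRPA2 did not pass the test (log2 change -0.28, adjusted p = 0.806). LHCB2.1 (AT2G05100), of the other large antenna family, had 282, 230.2 and 414 CPM against 50.2, 45.7 and 39.9 CPM (log2 change 2.76, SE 0.33, adjusted p = 1.98e-07). LHCB2.2 rose by 3.18 (SE 0.33) and LHCB1.4 by 3.81 (SE 0.51) on the log2 scale. At LHCB1.3 and LHCB2.1 all libraries at 10 °C were above all at 23 °C, as at 11.9% of all tested genes.

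LHCB1.1 (AT1G29920) and LHCB1.2 (AT1G29910), neighbouring near-identical copies, gave uneven libraries. LHCB1.1 had 5092, 1042 and 1484 CPM at 10 °C and 77.7, 126 and 138 CPM at 23 °C (log2 change 4.49, SE 0.56, adjusted p = 4.55e-07). LHCB1.2 had 6842, 8008 and 2728 CPM at 10 °C and 712, 132 and 122 CPM at 23 °C (log2 change 4.17, SE 0.70, adjusted p = 9.42e-05). At 10 °C replicate 1 was the highest at LHCB1.1 and replicate 3 the lowest at LHCB1.2, and at 23 °C replicate 1 alone was high at LHCB1.2. The groups did not overlap at either gene, as at 11.9% of all tested genes in that direction. The split of reads between the copies is uncertain.

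**Figure D2:**
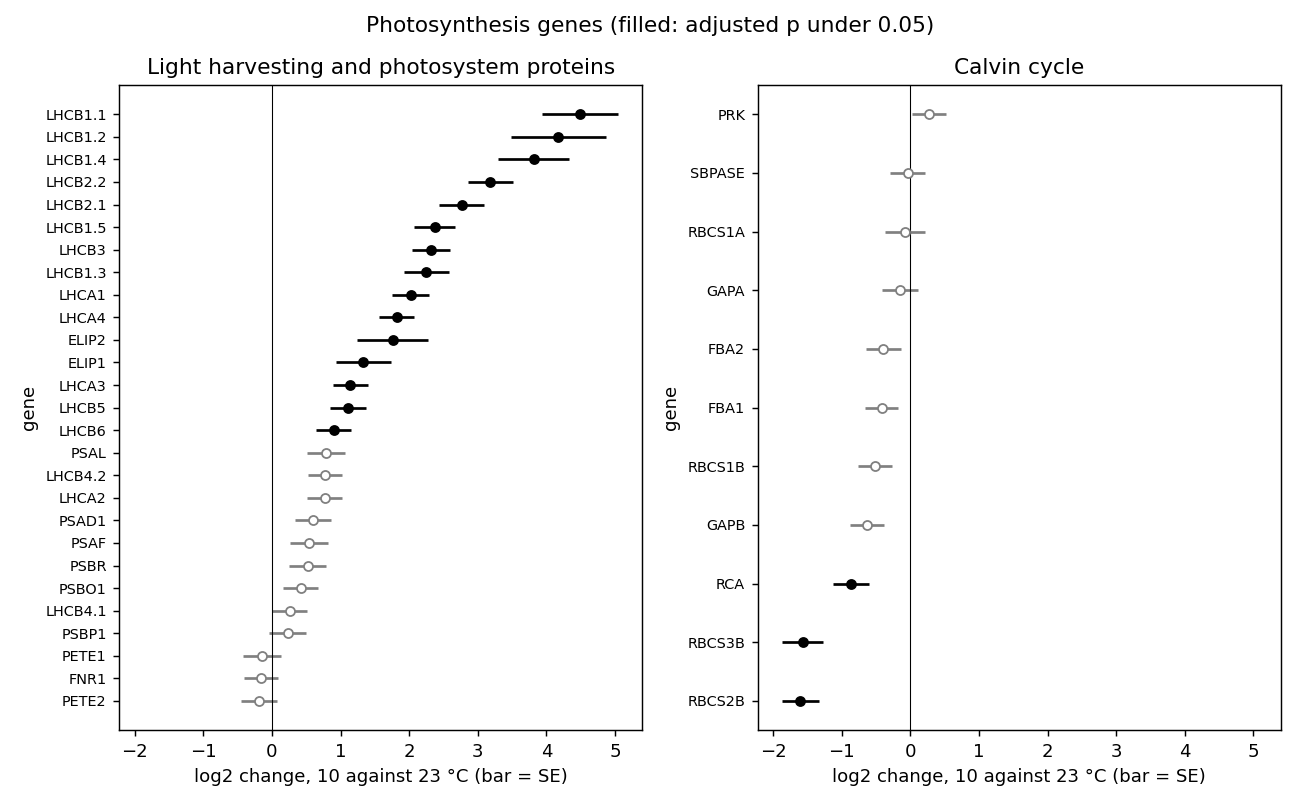
Log2 change at 10 against 23 °C with its standard error for each tested gene of light harvesting and the photosystems (left) and of the Calvin cycle (right), filled where the adjusted p was under 0.05. The antenna genes from LHCB6 at 0.90 to LHCB1.1 at 4.49 are filled, and the Calvin cycle genes that are filled all lie below 0.

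Antenna genes outside these families rose in part. LHCB3, which sits in the trimers of the major antenna and lies opposite ATM2, had 931, 1001 and 1128 CPM against 184, 222 and 207 CPM, a log2 change of 2.32 (SE 0.27). Of the photosystem I antenna, LHCA1 rose by 2.02 (SE 0.27), LHCA4 (opposite ATSMC2) by 1.82 (SE 0.26) and LHCA3 by 1.14 (SE 0.26) on the log2 scale, while LHCA2 did not pass the test (log2 change 0.77, SE 0.25, adjusted p = 0.0593). Of the minor antenna, LHCB5 was higher (log2 change 1.11, SE 0.27, adjusted p = 0.00657), with its call lost without 23 °C replicate 1 (adjusted p = 0.0543). LHCB6, opposite AT1G05207 over 143 bp, was higher (log2 change 0.90, SE 0.26, adjusted p = 0.0259), with its call lost without 10 °C replicate 1 or 3 or 23 °C replicate 2 or 3 (adjusted p = 0.0606 to 0.114). LHCB4.1 (log2 change 0.26, SE 0.26, adjusted p = 0.623) and LHCB4.2, opposite AT3G08943 over 44 bp (log2 change 0.78, SE 0.25, adjusted p = 0.0516), did not pass.

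The early light-induced proteins ELIP1 and ELIP2, which bind free chlorophyll under light stress, were called from few counts. ELIP1 had 69 counts at 10 °C and 43 at 23 °C (log2 change 1.33, SE 0.40, adjusted p = 0.0326), and its call was lost without 10 °C replicate 1 or 3 or 23 °C replicate 1, 2 or 3 (adjusted p = 0.050001 to 0.150). ELIP2 had 26 and 12 counts (log2 change 1.76, SE 0.52, adjusted p = 0.0315), and its call was lost without 10 °C replicate 1, 2 or 3 or 23 °C replicate 1, 2 or 3 (adjusted p = 0.0632 to 0.130).

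Core photosystem and electron transport genes on the list did not pass the test. PSBO1, PSBP1 and PSBR of photosystem II were at 0.42 (SE 0.26), 0.23 (SE 0.27) and 0.52 (SE 0.27) on the log2 scale. The photosystem I subunits PSAD1, PSAF and PSAL were at 0.60, 0.54 and 0.79. Plastocyanin genes PETE1 and PETE2 and the reductase FNR1 were at -0.15, -0.19 and -0.16. PSBP1 lies opposite AT1G06690, PSBR opposite RECA1 and FNR1 opposite AT5G66180.

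Counts on the other strand of some antenna genes moved with them. ATM2, a myosin gene that shares 186 bp of exon with LHCB3, had 1511, 1381 and 2423 CPM at 10 °C and 316, 290.3 and 239 CPM at 23 °C (log2 change 2.65, SE 0.33, adjusted p = 4.80e-07). ATSMC2, which shares 53 bp with LHCA4, had 161, 444 and 388 CPM against 37.6, 37.6 and 23.9 CPM (log2 change 3.26, SE 0.35, adjusted p = 2.34e-08). RWA3, a wall acetylation gene that shares 99 bp with LHCB1.5, had a log2 change of 2.82 (SE 0.36), and LHCB1.5 itself, which also lies opposite AT2G08665, of 2.37 (SE 0.30). Whether the counts at these neighbours came from the antenna transcripts was not tested. LHCB2.1, LHCB2.2, LHCB1.4 and LHCA1 have no such neighbour in the annotation.

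**Figure D3:**
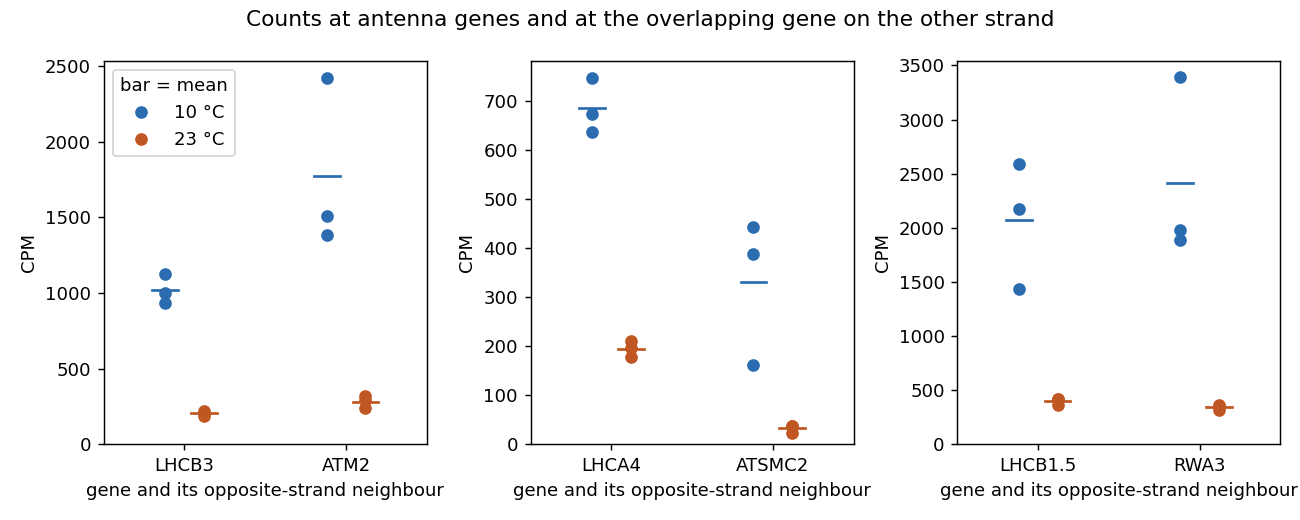
CPM in each Col-0 library at 10 and 23 °C at LHCB3, LHCA4 and LHCB1.5 and at the gene that overlaps each on the other strand, with bars at the mean of 3 libraries. In every panel the libraries at 10 °C lie above those at 23 °C at both genes, for example 1381 to 2423 against 239 to 316 CPM at ATM2.

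Carbon fixation genes that passed the test were lower. Of 11 tested Calvin cycle genes 0 were higher and 3 lower, with a median log2 change of -0.41, where 2.85% of all tested genes were lower. Rubisco is the enzyme that fixes carbon dioxide, and its small subunit is encoded by the RBCS genes. RBCS2B (AT5G38420) had 956, 1131 and 1056 CPM at 10 °C and 2924, 3184 and 3436 CPM at 23 °C (log2 change -1.60, SE 0.27, adjusted p = 0.000117). RBCS3B (AT5G38410), beside it on chromosome 5, had 1950.0, 2419 and 2447 CPM against 5973, 6591 and 7662 CPM (log2 change -1.57, SE 0.30, adjusted p = 0.000514). At both genes every library at 10 °C lay below every library at 23 °C, as at 12.6% of all tested genes. RBCS1A (AT1G67090), on chromosome 1, had 5989, 3945 and 4816 CPM against 5999, 4802 and 4734 CPM (log2 change -0.07, SE 0.29, adjusted p = 0.929). RBCS1B was at -0.52 on the log2 scale (SE 0.25, adjusted p = 0.237). RBCS1B, RBCS2B and RBCS3B lie in a row and are near-identical, so the split of reads between them is uncertain.

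Rubisco activase, RCA (AT2G39730, opposite AT2G39725 over 3 bp), which clears inhibitors from Rubisco, had 2653 ± 353 against 4835 ± 479.6 CPM (SD, n = 3 each; log2 change -0.86, SE 0.27, adjusted p = 0.0411). Its call was lost without 10 °C replicate 2 or 3 or 23 °C replicate 1, 2 or 3 (adjusted p = 0.0690 to 0.190). The other enzymes of the cycle on the list, GAPA, GAPB, PRK (opposite NSI), SBPASE, FBA1 and FBA2, did not pass, from -0.63 at GAPB to 0.28 at PRK on the log2 scale.

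Several jasmonate genes were lower at 10 °C. Jasmonate is a hormone of wounding and defence, made from chloroplast lipids by LOX, AOS and AOC enzymes. Of 9 tested genes 5 were lower and 1 higher, with a median log2 change of -1.01, where 2.85% of all tested genes were lower and 3.83% higher. LOX2 (AT3G45140), the lipoxygenase of the first step, had 300.1, 275 and 300.0 CPM at 10 °C and 915, 802 and 696 CPM at 23 °C (log2 change -1.46, SE 0.27, adjusted p = 0.000344). MYC2 (AT1G32640), the transcription factor of the response, had 18.4, 16.2 and 27.9 CPM against 112, 87.4 and 128 CPM (log2 change -2.34, SE 0.34, adjusted p = 7.16e-06). It shares 3241 bp of exon with AT1G32630 on the other strand, which had 7 and 8 counts. VSP1 (AT5G24780), a vegetative storage protein and marker of jasmonate, had 0 counts at 10 °C and 20.1, 17.5 and 23.9 CPM at 23 °C, which was at least 8.70-fold lower against a floor of 3 counts over the group (adjusted p = 0.000110). VSP2 had 3 counts against 99, a ratio of 20.6 with a 95% counting interval of 6.84 to 101 (adjusted p = 7.44e-05). AOS, allene oxide synthase, had 92.7 ± 13.9 CPM at 10 °C and 189 ± 33.5 CPM at 23 °C (SD, n = 3 each; log2 change -1.01, SE 0.30, adjusted p = 0.0296), and its call was lost without 10 °C replicate 1, 2 or 3 or 23 °C replicate 1 or 2 (adjusted p = 0.0521 to 0.161). The higher member was AOC1, an allene oxide cyclase, with 26.8, 32.3 and 37.2 CPM against 10.0, 8.06 and 9.97 CPM (log2 change 1.74, SE 0.43, adjusted p = 0.00791), and its call was lost without 10 °C replicate 3 (adjusted p = 0.0651).

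Among salicylic acid defence genes 2 of 5 tested were higher, where 3.83% of all tested genes were, and 0 without the 10 °C replicate 2 or the 10 °C replicate 3. PAD4 (AT3G52430), a lipase-like regulator of immunity, had 329, 695 and 649 CPM against 163, 215 and 275 CPM (log2 change 1.35, SE 0.35, adjusted p = 0.0112), and its call was lost without 10 °C replicate 2 or 3 or 23 °C replicate 1 (adjusted p = 0.0633 to 0.0908). PR2, a glucanase induced by the hormone, had 22 counts against 6 (log2 change 2.52, SE 0.74, adjusted p = 0.0316), and its call was lost without 10 °C replicate 2 or 3 or 23 °C replicate 2 or 3 (adjusted p = 0.0601 to 0.275). PR1, a marker of the same hormone, had 10 counts at 10 °C and 0 at 23 °C and was not tested.

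In the other hormone and stress groups 1 or 2 genes each were called, where 3.83% of all tested genes were higher and 2.85% lower. GAI (AT1G14920), a DELLA repressor of gibberellin growth responses and the 1 called of 5 tested gibberellin genes, had 55.3, 92.9 and 153 CPM against 30.1, 14.8 and 41.9 CPM (log2 change 1.82, SE 0.35, adjusted p = 0.000733). CYP707A3, which breaks down abscisic acid and was the 1 called of 9 tested genes of that hormone, had 0 counts at 10 °C and 31 at 23 °C, at least 6.27-fold lower by the same floor (adjusted p = 0.00174). Of 10 antioxidant enzymes 2 were lower. CAT2 (AT4G35090), the main leaf catalase of peroxisomes, opposite AT4G35080 over 95 bp, had 245, 210.0 and 226 CPM against 386, 488 and 482 CPM (log2 change -0.99, SE 0.24, adjusted p = 0.00751). CSD1, a cytosolic superoxide dismutase opposite AT1G08840 over 41 bp, was lower (log2 change -1.42, SE 0.37, adjusted p = 0.0120), with its call lost without 10 °C replicate 1 or 3 (adjusted p = 0.0521 to 0.0548). Of 10 tested chaperone and heat response genes HSP90.1, a heat-inducible chaperone, was lower, with 3 counts against 35, a ratio of 7.27 with a 95% counting interval of 2.29 to 37.0 (adjusted p = 0.00218). Without the 10 °C replicate 1, 2 genes of that group were lower.

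Of 19 tested glucosinolate genes 1 was higher and 1 lower, where 3.83% of all tested genes were higher and 2.85% lower. ESM1, which steers glucosinolate breakdown away from nitriles, had 267, 226 and 298 CPM against 135, 137 and 102 CPM (log2 change 1.08, SE 0.25, adjusted p = 0.00456). CYP79B3, of indole glucosinolate synthesis, had 23.7 ± 12.7 against 61.9 ± 13.1 CPM (SD, n = 3 each; log2 change -1.29, SE 0.32, adjusted p = 0.00856), and its call was lost without 10 °C replicate 1 or 2 (adjusted p = 0.0510 to 0.0546). Of 9 beta-tubulins TUB3 (log2 change -1.04, SE 0.26, adjusted p = 0.00856) and TUB8 (log2 change -1.21, SE 0.33, adjusted p = 0.0204) were lower. The TUB3 call was lost without 10 °C replicate 2 (adjusted p = 0.0665), and the TUB8 call without 10 °C replicate 2 or 3 or 23 °C replicate 1 or 3 (adjusted p = 0.0548 to 0.120).

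Seed storage transcripts varied between replicates at 23 °C. The summed level of the 12 listed seed storage and oil body genes was 43.9 to 987 CPM at 23 °C and 109 to 257 CPM at 10 °C. CRU1, a cruciferin and the 1 called of 8 tested genes, had 36.9, 20.2 and 13.95 CPM at 10 °C and 153, 141 and 12.0 CPM at 23 °C (log2 change -2.06, SE 0.59, adjusted p = 0.0245). Its groups overlapped, and its call was lost without 10 °C replicate 2 or 3 or 23 °C replicate 1 or 2 (adjusted p = 0.0706 to 0.157). Without the 23 °C replicate 3, whose CRU1 level was the lowest of that group, 5 of the 8 genes were lower. With no filter on low counts 8 of 12 were. With all libraries and the filter, 2.85% of all tested genes were lower.

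Flowering regulators gave 1 called gene, where 3.83% of all tested genes were higher and 2.85% lower. Of 11 tested flowering repressors FLM (AT1G77080), a MADS-box repressor whose splicing responds to temperature, was higher, with 31.9, 36.3 and 41.9 CPM against 11.3, 18.8 and 5.98 CPM (log2 change 1.52, SE 0.46, adjusted p = 0.0371). Its groups did not overlap, as at 11.9% of all tested genes in that direction. Its call was lost without 10 °C replicate 2 or 3 or 23 °C replicate 1 or 3 (adjusted p = 0.0828 to 0.172). SVP, its partner, had 45.3, 52.5 and 48.8 CPM against 60.2, 41.7 and 45.8 CPM (log2 change -0.04, SE 0.30, adjusted p = 0.973). FLC, opposite AT5G01675 over 804 bp, had 5 counts at 10 °C and 5 at 23 °C (adjusted p = 0.785), too few to show whether it changed. VIN3 (AT5G57380, opposite AT5G57370 over 26 bp), which starts the silencing of FLC in the cold, had 23.5, 36.3 and 32.6 CPM against 12.5, 20.2 and 17.9 CPM and did not pass the test (log2 change 0.82, SE 0.54, adjusted p = 0.429). SOC1, which promotes flowering, had 3 counts against 12 (adjusted p = 0.402), and SPL3 of the age pathway, opposite AT2G33815 over 955 bp, 11 against 31 (adjusted p = 0.417). FT, the mobile flowering signal, had 1 against 4 counts and was not tested. Of 8 tested genes of the autonomous and vernalization pathways and 11 tested clock genes 0 were called. The clock genes CCA1, with 8 and 7 counts, and GI, with 7 and 8, were too low to be tested.

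**Figure D4:**
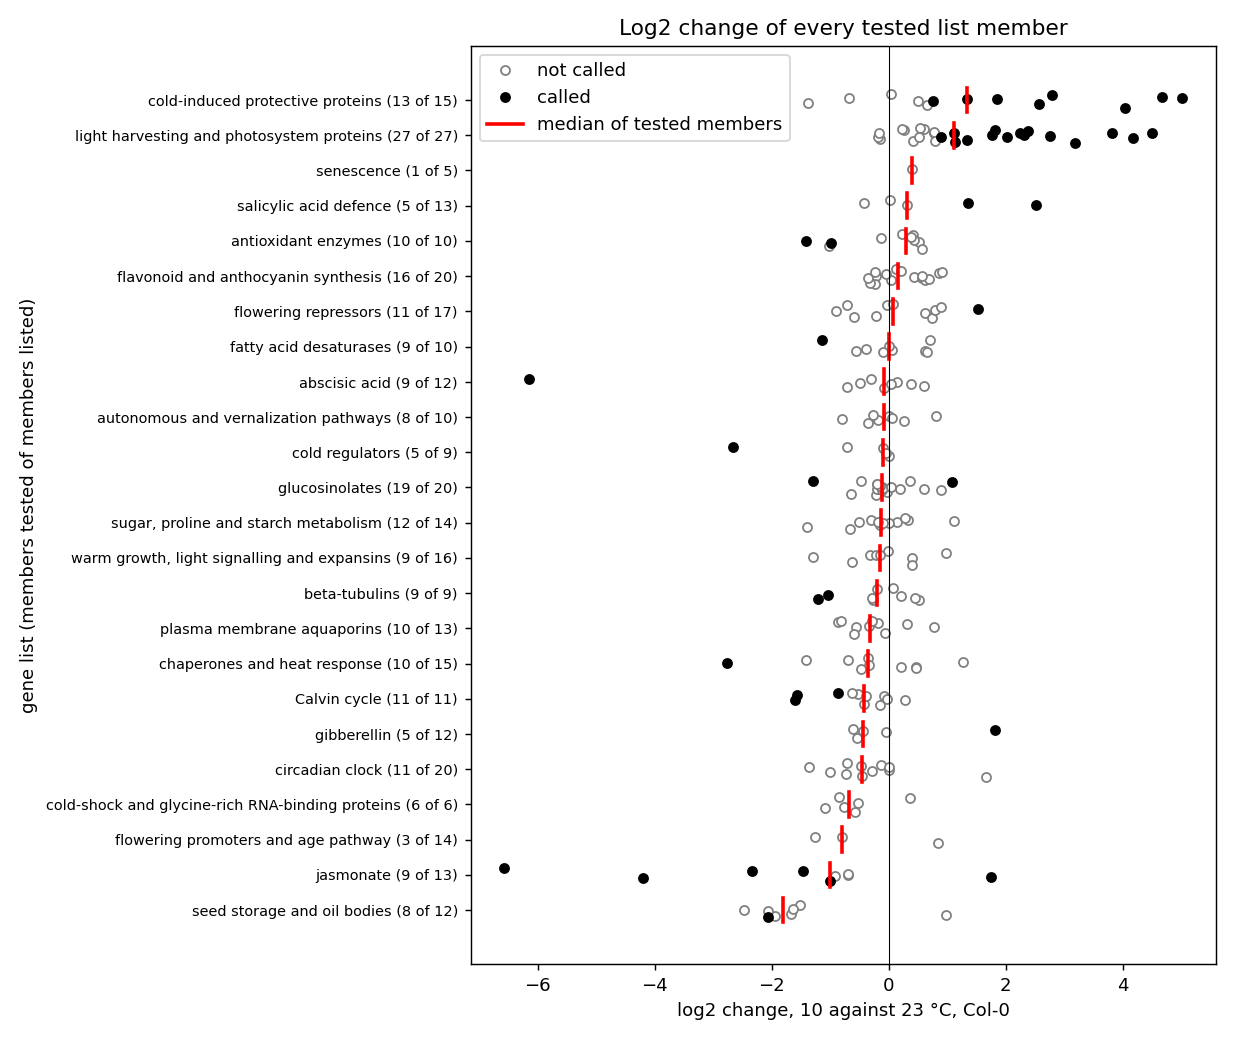
Log2 change at 10 against 23 °C of each tested member of the gene groups, filled where called, with a bar at the median of the tested members of each group. The medians of the cold-induced protective proteins (1.33) and of the light harvesting and photosystem genes (1.11) lie to the right of 0, and that of the jasmonate genes (-1.01) to the left.

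The group of warm growth, light signalling and expansins held 0 called of 9 tested genes, the plasma membrane aquaporins 0 of 10 and the senescence genes 0 of 1. Of all tested genes 6.69% were called. Summed root markers had 38.6 to 40.4 CPM at 10 °C and 26.3 to 34.9 CPM at 23 °C, guard cell markers 24.2 to 30.2 and 21.3 to 30.9 CPM, and floral organ markers 0 and 0 to 4.03 CPM. Of 4 root and 2 guard cell markers 2 each were tested and 0 were called. The 4 floral organ markers were too low to be tested. The part of these markers in the results was not tested.

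Among the 10 genes with the largest rises at a mean level of at least 20 CPM were COR15A, COR15B, KIN1 and the antenna genes LHCB1.1, LHCB1.2 and LHCB1.4. Only genes that stayed called whichever compared library was left out were ranked. AT1G69140 (chromosome 1, 25991371 to 25992018), a transcribed pseudogene in the annotation, had 969, 993 and 986 CPM at 10 °C and 75.2, 44.4 and 79.7 CPM at 23 °C (log2 change 3.89, SE 0.31, adjusted p = 7.71e-11). LHCB2.3, a further antenna gene opposite AT3G27700 over 595 bp, had 199.5, 169.6 and 312 CPM against 12.5, 26.9 and 12.0 CPM (log2 change 3.69, SE 0.33, adjusted p = 1.82e-10). The groups lay far apart at both genes. PGSIP8, a glycosyltransferase family protein, had 28 counts against 1, a ratio of 44.9 with a 95% counting interval of 7.42 to 1836. AT5G64710, annotated as a putative endonuclease or glycosyl hydrolase, had 33 against 3, a ratio of 17.64 (interval 5.53 to 89.9).

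By the same rules of level and of calls, the 10 largest falls were at genes with 0 to 4 counts at 10 °C, VSP1 and VSP2 among them. HSP70 (AT3G12580), a chaperone of heat and stress, had 3.35, 8.08 and 0 CPM at 10 °C and 52.7, 63.2 and 63.8 CPM at 23 °C (log2 change -4.15, SE 0.49, adjusted p = 1.75e-07). AT3G28270, annotated as a putative transmembrane protein, had 3 counts against 128, a ratio of 26.6 (interval 8.90 to 131). SQP1, annotated as an oxidoreductase, had 2 against 77, a ratio of 24.01 (interval 6.42 to 202). These genes were close to the floor of the counting at 10 °C. AGP30, an arabinogalactan protein of the cell wall, had 2 against 67, a ratio of 20.9 (interval 5.56 to 176). AT1G07135, annotated as a glycine-rich protein, had 2 against 123, a ratio of 38.3 (interval 10.4 to 320.2). The remaining 3 were the zinc finger gene AT3G02790 (opposite AT3G02780 over 712 bp) with 1 against 51 counts, the lectin gene AT1G52100 with 1 against 49, and AT3G24100 (opposite AT3G24110 over 104 bp) with 4 against 97.

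Levels at the other temperatures were set beside these values. Comparisons with 23 °C share the 23 °C libraries, and seedlings were taken 12 days after the move at 16 °C and 7 days at 27 °C. The 3 Col-0 libraries at 16 °C held 338784 to 381485 counts at genes. Of their reads 22.9 to 35.8% aligned to several places, and 3.24 to 9.72% of their counts were at organelle genes. The 10 °C replicate 2, which stood apart from the other compared libraries, had 26.5% and 6.77%. What this did to the 16 °C values was not tested. COR15A had 894 ± 244 CPM at 10 °C, 61.1 ± 25.4 at 16 °C, 27.0 ± 8.08 at 23 °C and 16.8 ± 7.19 at 27 °C (SD, n = 3 each), and at 16 against 23 °C it did not pass the test (log2 change 1.18, adjusted p = 0.195). KIN1 had 497 ± 42.6, 109 ± 46.3, 29.7 ± 5.78 and 7.34 ± 5.48 CPM in the same order and was higher at 16 than at 23 °C (log2 change 1.85, adjusted p = 0.0123). LHCB2.1 had 309 ± 94.8 CPM at 10 °C and 25.7 ± 20.5, 45.2 ± 5.16 and 25.8 ± 2.60 CPM at 16, 23 and 27 °C (16 against 23 °C: log2 change -0.73, adjusted p = 0.566). COR15A, KIN1 and LHCB2.1 thus had their highest level at 10 °C. RBCS3B had 2272 ± 279, 5015 ± 819.9, 6742 ± 854.8 and 6778 ± 777 CPM from 10 to 27 °C (16 against 23 °C: log2 change -0.43, adjusted p = 0.640). LOX2 had 292 ± 14.7, 372 ± 55.3, 804 ± 109.9 and 653 ± 119 CPM (16 against 23 °C: log2 change -1.11, adjusted p = 0.0235).

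**Figure D5:**
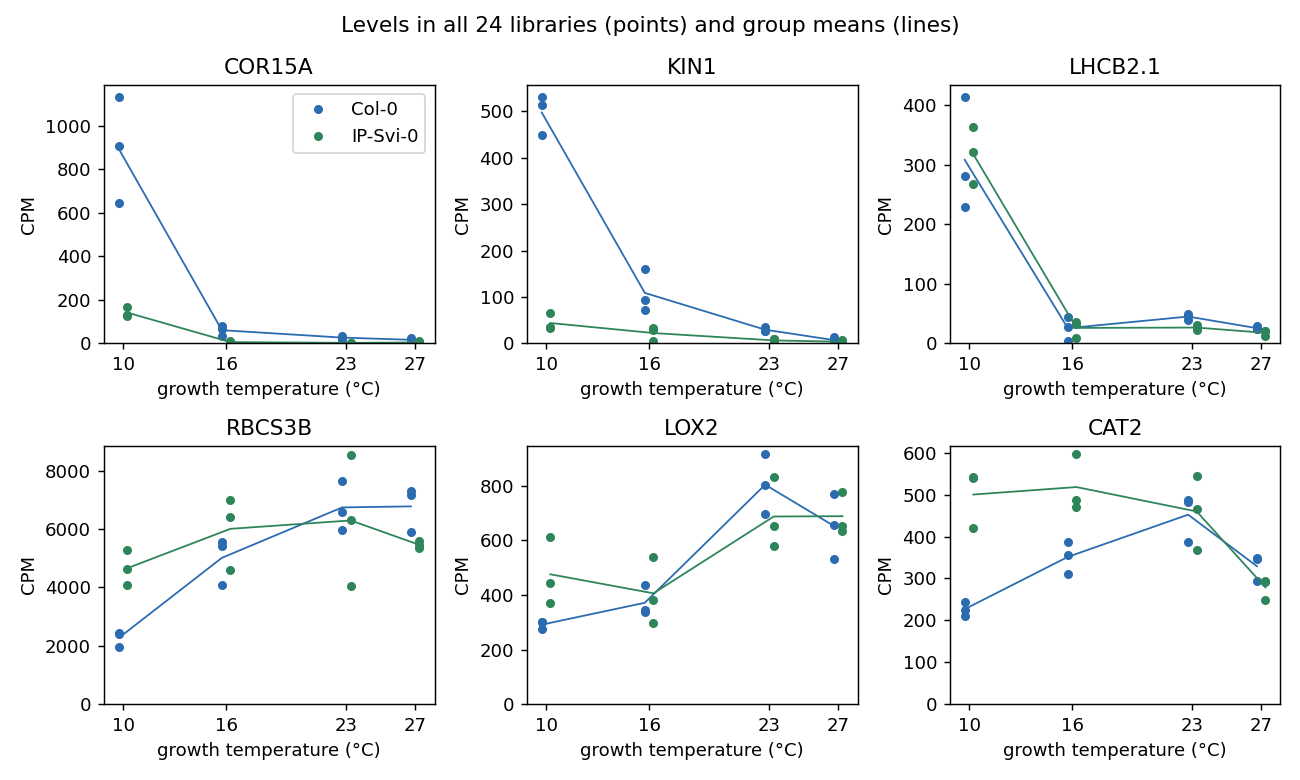
CPM of 6 genes at 10, 16, 23 and 27 °C in each library of Col-0 and IP-Svi-0, with lines through the means of 3 libraries. In Col-0 the antenna gene LHCB2.1 is high at 10 °C alone, with 309 CPM against 25.7 to 45.2 CPM, while KIN1 falls at each warmer temperature from 497 to 7.34 CPM.

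Whether the Col-0 response differed from that of IP-Svi-0 was tested as the difference between the log2 changes of the accessions. It was called for 550 of 10097 genes (5.45%), 144 (1.43%) with the higher log2 change in IP-Svi-0 and 406 (4.02%) with the lower. The count fell to 34 with the share of counts without a neighbour as covariate. It was 118 without the Col-0 10 °C replicate 2 and 93 to 282 each time 1 of 9 libraries, that one among them, was left out. It was 971 without the Col-0 10 °C replicate 1, 846 without the IP-Svi-0 10 °C replicate 3 and 736 without the Col-0 23 °C replicate 3. At COR15A the IP-Svi-0 libraries had 142 ± 23.5 CPM at 10 °C and 2.86 ± 2.48 CPM at 23 °C (difference in log2 change 0.50, SE 0.75, adjusted p = 0.752). At LHCB2.1 they had 318 ± 48.2 and 26.8 ± 4.35 CPM (difference 0.80, SE 0.49, adjusted p = 0.347). Of the 13 tested cold-induced protective proteins 0 had a higher and 1 a lower log2 change in IP-Svi-0. Among light harvesting and photosystem genes 6 of 27 had a higher log2 change in IP-Svi-0 and 0 a lower one, and among Calvin cycle genes 4 of 11 and 0.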

How the data were processed

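Per the labels, RNA from whole seedlings was made into strand-specific libraries. The authors deposited 1 table of read counts per gene. FastQC, HISAT2, HTSeq, Cufflinks and Cuffdiff and the build TAIR10 are named per the submitters' processing notes, and their versions and settings are not given in the sources used here. Rows of reads assigned to no gene were left out. In the 6 libraries no-feature reads were 69.2 to 89.2% of all reads. Of 33602 gene IDs 32835 matched RefSeq TAIR10.1, which gave positions, neighbours and promoter sequences.

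The test of the counts used edgeR 4.0.16, with limma 3.58.1 under R 4.3.3, and 8 group means over 24 libraries, which share 1 estimate of the spread, TMM scaling and filterByExpr with a minimum count of 10, and p-values were adjusted by the method of Benjamini and Hochberg. DESeq2 1.42.0 was an alternative. Counts simulated from the same model and its estimates of spread were passed through the fit. They held no deviant library and no counts from an overlapping gene, so this tested only the calculation. Counting intervals and floors cover counting error only. Named genes were a preset list, up to 3 called members per list and direction by change, and the 10 largest called changes per direction at a mean of at least 20 CPM. Further members of the lists, and neighbours, are named for context and were chosen after their values were seen. The comparison and lists were chosen with earlier results of these data known.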

Additional observations from a re-analysis of the deposited data

Results flagged for a closer look

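At 8 of 54 named genes the log2 change from 23 to 10 °C differed between the accessions by edgeR's test of the difference (Benjamini-Hochberg), given as IP-Svi-0 minus Col-0. Of all tested genes 5.45% differed. Many of the 54 were named for their Col-0 change, and the same Col-0 libraries enter this test. The 8 of 54 thus cannot be read against that share. With the share of counts at nuclear genes without a neighbour as covariate 3 of the 8 passed, and without the Col-0 10 °C replicate 2, 0 passed. The difference was 1.23 at BAM3 (adjusted p = 0.0353), where Col-0 had a log2 change of -0.11 and IP-Svi-0 one of 1.12. It was 1.65 at RBCS1A (adjusted p = 0.0204), with log2 changes of -0.07 and 1.58, and 1.27 at RBCS2B (adjusted p = 0.0416), with -1.60 and -0.33. These 3 are the genes that passed with the covariate. ZAT10 differed by 2.33 (adjusted p = 0.0370), AT3G28270 by 2.52 (adjusted p = 0.0464) and CAT2 by 1.11 (adjusted p = 0.0454). GAI differed by -1.95 (adjusted p = 0.0289), with 1.82 for Col-0 and -0.13 for IP-Svi-0, and PAD4 by -1.59 (adjusted p = 0.0466), with 1.35 and -0.24. Without the Col-0 10 °C replicate 2 the adjusted p of the 8 ran from 0.0643 at GAI to 0.137 at PAD4.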

How the results depend on the processing

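Of 43 named genes that were called, 24 kept the call in every alternative that could be run for them, which was all 17 for 14 genes and 15 or 16 for the other 10. The call was lost in at least 1 alternative at 19 genes, and 0 of the 43 reversed. The genes named for the largest changes had been chosen to stay called in every fit without 1 compared library. Those fits could not take away their call, so these counts do not measure how stable called genes are. The count of 387 genes higher at 10 °C became 52 when the test asked for a change over 2-fold, 214 among genes without a neighbour on the other strand, and 249 with the share of counts at such genes as covariate. Leaving out 1 library gave 188 to 527. The count of 288 lower genes became 43, 192 and 433 in the same order, 184 with libraries thinned to the smallest total, and 162 to 281 without 1 library. Of the genes on the preset list 8 were called, 5 with the 2-fold test and 5 to 7 without 1 library. Of all tested genes 6.69% were called. CBF1, CBF2, CBF3, GOLS3, FT, CCA1 and GI, which are on the preset list, were not tested. The 550 genes with a difference between accessions became 949 when only the compared groups were fitted, 4 with the 2-fold test, 155 without neighbours, 34 with the covariate, 332 thinned, and 93 to 971 without 1 library. With only the groups compared in the fit, 7576 genes were tested, 410 higher and 326 lower. DESeq2 called 341 higher and 244 lower. The cause of these shifts was not tested. The log2 change turned sign at 5 genes that were not called. Without 1 library it ran from -0.021 (without the 10 °C replicate 1) to 0.73 at GRP7 and from -0.088 (without the 10 °C replicate 3) to 1.45 at FLC. At VIN3 it was -0.33 with the covariate. At SVP it was 0.060 among genes without a neighbour, 0.26 thinned, and -0.15 to 0.15 without 1 library. At RBCS1A it was 0.023 among genes without a neighbour, 0.18 with the covariate, and -0.24 to 0.049 without 1 library. Samples share only a replicate number, with correlations of the deviations of same-numbered libraries of 0.242, -0.0388 and 0.0712. With the replicate block 396 genes were higher, 294 lower and 570 differed between accessions. The fits with 1 library of IP-Svi-0 left out were chosen after seeing the data. Depth limits the low genes, since 3 counts over a group were 2.35 CPM at 10 °C and 1.47 CPM at 23 °C.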

Other observations

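The genes in this section were chosen after their values were seen, from those called at 10 against 23 °C by edgeR's quasi-likelihood test (Benjamini-Hochberg), so their values are a description. They do not stand for their families or pathways, whose other members were not counted. The zinc finger genes SZF1 (log2 change -2.97, SE 0.37) and CZF1 (-1.52, SE 0.29), the transcription factors WRKY33 (-2.50, opposite AT2G38480), WRKY11 (-2.07), ERF104 (-1.69) and MYB77 (-2.59), the calmodulin-like TCH2 (-2.65, opposite AT5G37760), the ethylene synthesis gene ACS6 (-3.06) and the deadenylase gene CAF1A (-2.53) were lower at 10 °C. Among genes known from phosphate starvation, SPX1, a phosphate sensor, was higher at 2.37 (SE 0.40), and the RNA gene AT5G03545 at 2.097 (SE 0.37). AT5G20790 was higher at 2.60 (SE 0.38). GDPD1 was at 1.18, and AT3G02030, which overlaps it on the other strand, at 2.70.

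Of the major latex proteins, MLP34 (-1.42) and MLP328 (-3.54, SE 0.30) were lower. The glycine-rich proteins GRP3S (2.67, SE 0.31) and GRP3 (1.32) and the dehydrin HIRD11 (1.47) were higher. The ferredoxin gene FD1 was lower (-2.44, SE 0.31). The nitrate reductase gene NIA1 (-1.57) and the glutamate synthase gene GLU1 (-1.51, opposite AT5G04150) of nitrogen assimilation were lower too.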
